A study of Mus musculus with 4 samples.

Results

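The histone genes of the juvenile mouse testis were followed in poly(A) RNA of Kctd19 knockout (ko, Kctd19-/-) and heterozygous (het, Kctd19+/-) mice, 2 libraries per genotype, all from untreated C57BL/6J testes at postnatal day 14. Members were all table rows whose symbol has a histone form (H1f, H2af, H3f, Hist1h to Hist4h, or H1 to H4 cluster numbers such as H2bc1 and H4c12) and Hils1, which gave 81 of 55401 rows. The het controls carry 1 mutated allele as well, the labels give neither the deleted part of Kctd19 nor the number of testes per library, and the RNA comes from all cell types of the testis. In such bulk RNA, fewer cells of a type and less RNA per cell cannot be told apart.

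Histones form the protein core around which DNA is wound, with linker histones of the H1 family outside it. The replication-dependent genes sit in clusters, are transcribed in S phase, and make mRNAs that end in a conserved stem-loop instead of a poly(A) tail. Replacement variants such as H3.3 are made outside S phase from ordinary polyadenylated mRNAs. Male germ cells add their own set: the testis forms TH2A, TH2B, H1t and H3t in spermatogonia and spermatocytes, and H1t2 and HILS1 in spermatids, before transition proteins and protamines take the place of most histones.

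The 81 rows were sorted by symbol and annotation into 61 cluster genes (51 on chromosome 13 and 10 on chromosome 3), 4 replacement variants (H3f3a, H3f3b, H1f0 and H1f10), 7 germ cell histones, and 9 retrocopies, pseudogenes or antisense transcripts. Levels are in FPKM, reads per kilobase of exon scaled to library size. Only 19 of the 81 had a mean of at least 1 FPKM and could be tested, and the other 62 did not reach it. The tables name the replacement variants of H2A (H2ax, H2az1 and others) and further histone genes such as H2aw with symbols that the rule leaves out. Values for several of these rows are given beside the members.

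The 16 bases of the stem-loop are shown because they set the cluster genes apart from the 4 replacement variants among the members. The histone stem-loop consensus, 6 paired bases on each side of a loop of 4, was found in the annotated transcripts of 43 of the 80 members with a GENCODE M21 model, 42 of them cluster genes and the other H1f6. It occurred in 43 of 55370 other genes (0.0777%), where pairing of the arms was not checked. These other genes include histone genes whose symbols lie outside the rule. All 4 replacement variants lacked it. It took 8 forms, the most frequent in 24 members, and each line below shows 1 gene on GRCm38 with the paired arms in capitals and its flanks in lower case.
H1f2, the linker histone H1.2 (chr13:23739507-23739536, plus strand): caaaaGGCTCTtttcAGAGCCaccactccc
H4c8, a gene of histone H4 (chr13:23531453-23531482, plus strand): ccaaaGGCCCTtttcAGGGCCgcccacatt
H1f6, the testis linker histone H1t (chr13:23696520-23696549, plus strand): ccaaaGGCTCTtttaAGAGCCacttacata
H4c9, a gene of histone H4 (chr13:22040957-22040986, minus strand): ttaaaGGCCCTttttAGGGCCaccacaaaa
H4c2, a gene of histone H4 (chr13:23757361-23757390, plus strand): caaaaGGTCCTtttcAGGACCactcactga
Both arms changed together in all 8 forms. The search allowed C or T at the variable places of the left arm and A or G in the right. It did not require the letters to pair. The arms of the H4 genes differ from those of every linker, H2A, H2B and H3 gene with the motif. The form of H4c8 was shared by 6 members, all H4 genes, and that of H1f6 also by 6. Of the 19 cluster genes without the motif, 9 have a model that stops at the end of the coding part, so the search could not reach a stem-loop there.

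The 4 replacement variants supplied most of the histone signal in these libraries. Their summed level was 378 and 351 FPKM in the ko libraries and 370 and 332 FPKM in the het libraries, which was 79.9% to 83.4% of the summed FPKM of all 81 members. The 61 cluster genes together reached 50.5 and 51.7 FPKM in ko and 46.7 and 55.9 FPKM in het. The groups overlap in both sums, and the het libraries lie further apart than the genotypes. The median cluster gene had a mean of 0.371 FPKM, 2 exceeded 5 FPKM, 52 of 61 fell short of the filter, and 5 were listed at 0 in every library. The libraries were made from poly(A) RNA, per the labels, and the part of that step in these low levels was not tested.

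**Figure D1:**
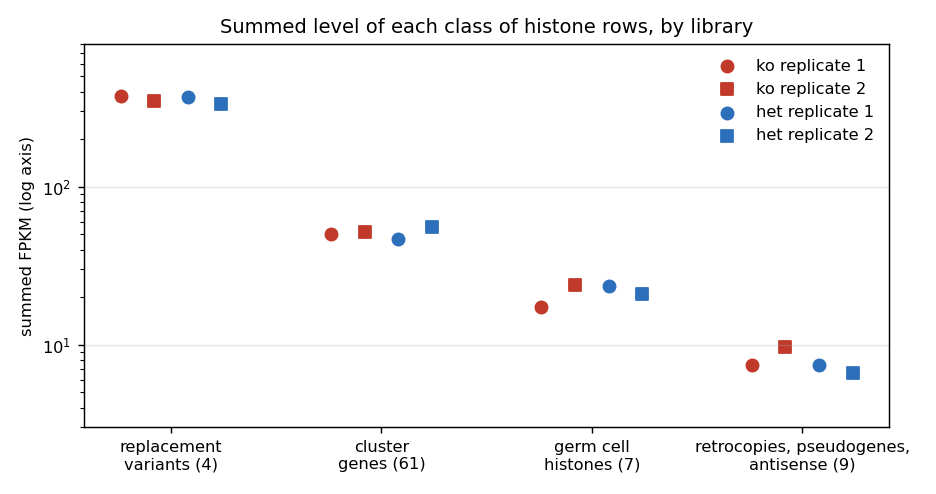
Summed FPKM (log axis) of the 4 classes of histone rows in each library, ko in red and het in blue, circles for replicate 1 and squares for replicate 2; the number of rows in a class stands below its name. Replacement variants lie between 332 and 378 FPKM and cluster genes between 46.7 and 55.9 FPKM.

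H3f3b and H3f3a both encode the replacement histone H3.3. H3f3b (GRCm38 chromosome 11, 116021912 to 116027962) had the highest level of all members, 246 and 225 FPKM in ko against 240 and 210 FPKM in het. H3f3a (chromosome 1, 180800832 to 180813943) stood at 20.6 and 19.1 FPKM in ko and 19.7 and 18.6 FPKM in het. In neither gene were the genotypes apart. The log2 fold change, ko minus het on the log2(FPKM + 1) scale, was 0.07 for H3f3b (SE 0.12, 95% interval -0.25 to 0.38) and 0.05 for H3f3a (SE 0.09, 95% interval -0.17 to 0.27), and limma, a linear model fitted across all genes, called neither (Benjamini-Hochberg adjusted p = 0.887 and 0.879).

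Among linker histones the replacement forms H1f0 and H1f10 were the most abundant. H1f0, the H1 of cells that have left the cycle (chromosome 15, 79028450 to 79030504), stood at 59.7 and 54.9 FPKM in ko and 57.4 and 59.9 FPKM in het. H1f10, formerly H1fx (chromosome 6, 87980421 to 87981637), stood at 51.00 and 51.9 FPKM in ko and 52.5 and 42.7 FPKM in het. Both pairs of ranges overlap. H1f0 had a log2 fold change of -0.03 (95% interval -0.26 to 0.19), 1 of the narrowest intervals among the members, and H1f10 of 0.12 (95% interval -0.20 to 0.43). The 5 cluster H1 genes summed to 14.6 and 13.96 FPKM in ko and 12.03 and 12.25 FPKM in het. Both ko sums lay above both het sums, an order found in 22.1% of all tested genes. Most of each sum came from H1f2 and H1f1. H1f2 had 9.44 and 7.04 FPKM in ko against 7.01 and 6.43 FPKM in het. H1f1 had 4.24 and 6.02 FPKM in ko against 4.15 and 3.997 FPKM in het. In both genes the ko libraries lay above the het libraries, with H1f2 nearly equal in ko replicate 2 and het replicate 1, and limma called neither (log2 fold change 0.25 and 0.26, Benjamini-Hochberg adjusted p = 0.667 and 0.683). With 1 library left out, the value ran between 0.059 and 0.436 for H1f2 and between 0.046 and 0.469 for H1f1. H1f3, H1f4 and H1f5 had 4 to 14 reads per library, and their levels can hardly be read at this depth.

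The core histone cluster genes had low levels, and few of them passed the filter. Those that did, 2 of 16 H2B, 1 of 12 H3 and 4 of 12 H4 genes, supplied most of their family's sum in each library. The 12 H4 genes summed to 9.78 and 12.0 FPKM in ko and 9.52 and 11.5 FPKM in het. None of the 16 H2A genes under the symbol rule passed the filter. They summed to 4.26 and 8.66 FPKM in ko and 5.56 and 5.84 FPKM in het. H2aw, an H2A gene outside the rule, did pass, at 9.50 and 11.7 FPKM in ko and 8.88 and 11.2 FPKM in het. The 16 H2B genes summed to 15.1 and 10.7 FPKM in ko and 12.2 and 16.9 FPKM in het. In these 3 families the genotypes overlap. The 12 H3 genes summed to 6.72 and 6.48 FPKM in ko and 7.37 and 9.49 FPKM in het, with both ko sums below both het sums. Most of each H3 sum came from H3c14, at 3.92 and 4.47 FPKM in ko and 4.83 and 5.77 FPKM in het. The order of the sums is therefore not separate from that of this 1 gene. Among all tested genes, 19.7% had both ko libraries below both het libraries.

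Of single core genes, H2bc4 (an H2B gene on chromosome 13) varied within genotypes more than between them, at 7.52 and 3.32 FPKM in ko and 4.31 and 7.76 FPKM in het. H3c14 (an H3 gene on chromosome 3, 96246685 to 96248509) stood at 3.92 and 4.47 FPKM in ko, below 4.83 and 5.77 FPKM in het, which limma put at -0.28 on the log2 scale (SE 0.13, adjusted p = 0.598 by Benjamini-Hochberg). H4c12, an H4 gene, had 19 and 15 reads in ko and 4 and 10 reads in het, or 3.13 and 3.30 FPKM against 0.876 and 2.64 FPKM, with a log2 fold change of 0.69 and a 95% interval of -0.19 to 1.57; leaving out het replicate 1 gave 0.213, and leaving out het replicate 2 gave 1.17. Its groups do not overlap, but the interval covers 0 and the value rests on few reads. H2bc21, an H2B gene whose transcript model carries a polyadenylation signal, stood at 2.83 and 3.59 FPKM in ko and 2.998 and 3.77 FPKM in het.

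Copies of nearly the same sequence limit what a single cluster gene can show. In the median cluster gene, 53.6% of all 50-base windows of the transcript also occur in the annotated transcripts of another gene, and in 8 of 61 the share exceeds 90%. For H3c14 it is 100%, most often with Gm20634, annotated as a processed transcript, which overlaps it on the same strand. For H4c12 it is 71.5%, while for H1f1 and H2bc21 it is 0. How the authors' counting dealt with reads that fit several copies is not stated in the labels, and the split among copies is uncertain. In all, 29 members share exon bases with another annotated gene. Most of them do so only with a gene on the opposite strand, often a miRNA model.

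**Figure D2:**
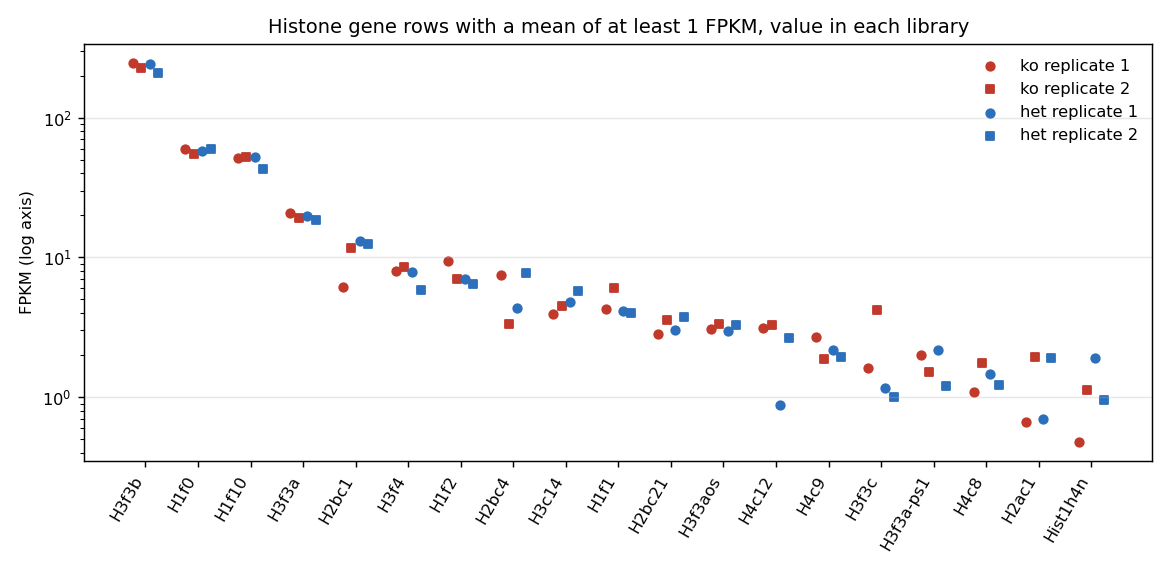
FPKM (log axis) of the 19 histone rows with a mean of at least 1 FPKM, ordered by mean, with 1 point per library, ko in red and het in blue. The levels run from 230.4 FPKM (mean of H3f3b) to 1.11 FPKM (mean of Hist1h4n), and in most rows the colours overlap.

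Annotated transcripts differ in how far they run past the stem-loop. Of the 42 cluster genes with the motif, 23 have a model that ends within 100 bases of it and 19 a longer one. The 2 with the highest levels, H1f2 and H3c14, both run on, by 840 and 1167 bases, to an end that holds the polyadenylation signal AATAAA in the last 50 bases. The median levels of the shorter and longer models were close, at 0.334 and 0.371 FPKM, and 2 of 23 and 3 of 19 passed the filter. AATAAA stood in the last 50 bases of a model in 11 of 61 cluster genes, against 69.6% of other protein-coding genes. A gene counted if any of its models held the signal, and the number of models per gene was not matched. Where a model stops at the coding end or soon after the stem-loop, any signal further on lies outside this search.

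**Figure D3:**
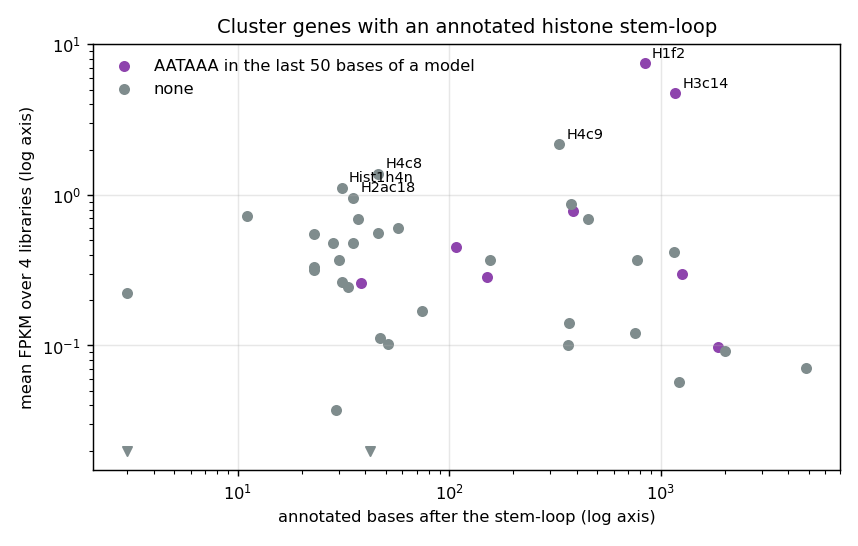
Mean FPKM over the 4 libraries against the number of annotated bases after the stem-loop (both log axes) for the 42 cluster genes with the motif, purple where a model holds AATAAA in its last 50 bases; triangles at the bottom are genes listed at 0. H1f2 (7.48 FPKM) and H3c14 (4.75 FPKM) stand highest, while other genes with as many bases after the loop stay below 1 FPKM.

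Across the 19 tested members limma called 0 higher and 0 lower in ko, against a background of 0.207% of all 17905 genes called higher and 0.0112% called lower. At an unadjusted p under 0.05 the count was also 0 of 19, where 4.9% of all genes were higher and 4.41% lower. In either direction limma called 0.218% of all genes. The voom test on whole reads called 0 of 19 as well, against 0.767% of genes higher and 0.625% lower, with 0 members at an unadjusted p under 0.05. The smallest p among the members was 0.0695 (limma, Benjamini-Hochberg adjusted p = 0.565). Of the 19, 12 had a log2 fold change above 0 and 7 below, with a median of 0.05 beside 0.01 over all genes. The ko values all exceeded the het values in 5 members (H3f3c, H4c12, H3f4, H1f2 and H1f1), an arrangement found in 22.1% of all genes, and below both in 2 (H3c14 and H2bc1), found in 19.7%. For 13 of the 19 the 95% interval stayed between -1 and 1 on the log2(FPKM + 1) scale, and for 6 it reached further; for rows near 1 FPKM the same interval is wider in FPKM itself.

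**Figure D4:**
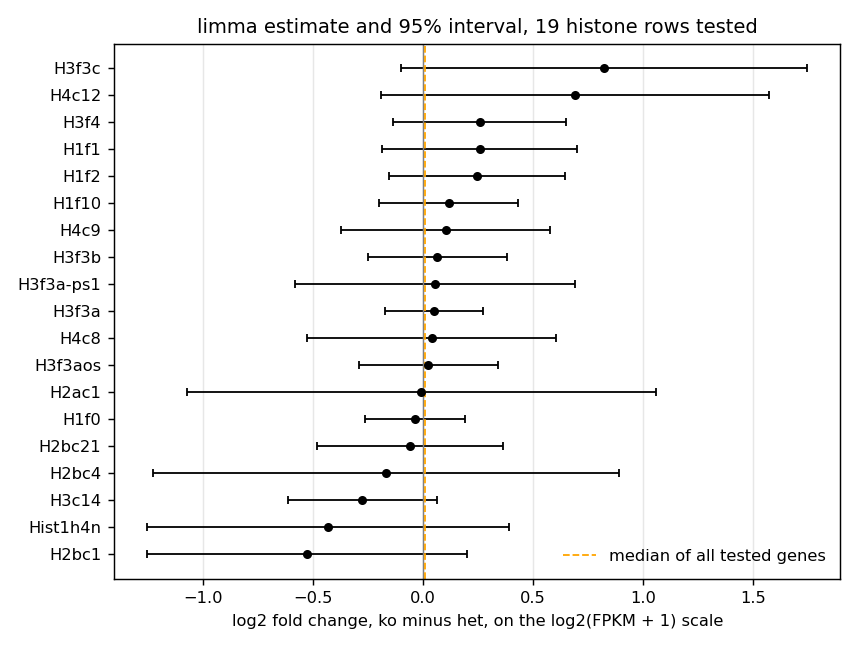
limma log2 fold change, ko minus het, on the log2(FPKM + 1) scale with its 95% interval for each of the 19 tested histone rows; the dashed line is the median of all tested genes. Every interval covers 0, from -0.53 for H2bc1 to 0.83 for H3f3c.

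Among the germ cell histones single libraries often differed more than the genotypes. H2bc1, the testis H2B TH2B of spermatogonia and spermatocytes (chromosome 13, 23933773 to 23934156), stood at 6.17 and 11.6 FPKM in ko and 12.99 and 12.4 FPKM in het, or 46 and 65 reads against 73 and 58 reads. Both ko libraries lay below both het libraries, with ko replicate 1 furthest down. The log2 fold change of -0.53 (SE 0.28, 95% interval -1.25 to 0.20) was not called by limma (adjusted p = 0.629 by Benjamini-Hochberg), and it was -0.12 without ko replicate 1 and -0.94 without ko replicate 2. H1f6, the linker histone H1t of pachytene spermatocytes, had 2 and 13 reads in ko and 10 and 6 reads in het, again lowest in ko replicate 1. The exact Poisson 95% intervals of those counts are 0.242 to 7.23 and 6.92 to 22.2 reads in ko and 4.79 to 18.4 and 2.20 to 13.1 reads in het, on raw reads of libraries of unequal depth; the levels were 0.113 and 0.978 FPKM in ko and 0.749 and 0.541 FPKM in het.

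H2ac1, the testis H2A TH2A, had 0.660 and 1.94 FPKM in ko and 0.701 and 1.899 FPKM in het, from 4 to 11 reads per library, so its 2 low libraries belong to different genotypes. H3f4, the testis H3 variant listed in RefSeq as H3t (chromosome 11, 58961812 to 58962222), stood at 8.01 and 8.51 FPKM in ko, above 7.81 and 5.80 FPKM in het (limma log2 difference 0.26, SE 0.15, adjusted p = 0.650 by Benjamini-Hochberg). GENCODE M21 lists it as a pseudogene and RefSeq as protein-coding, and its transcript shares no 50-base window with another annotated gene. H1f8, the linker histone of oocytes, had 18 and 11 reads in ko and 12 and 5 reads in het, under 1 FPKM in every library.

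H2bc1 and H2ac1 are neighbours that start from opposite strands of 1 short stretch, and it is printed because their levels differ: H2bc1 averaged 10.8 FPKM and H2ac1 1.30 FPKM over the 4 libraries. The RefSeq window of H2ac1 (GRCm38.p6, plus strand) covers most of the stretch between the genes. Capitals mark 3 motifs on either strand, none overlapping another: the CCAAT box, the TATA box searched as TATAAA, and the octamer ATTTGCAT.
H2ac1 promoter window (chr13:23934187-23934486): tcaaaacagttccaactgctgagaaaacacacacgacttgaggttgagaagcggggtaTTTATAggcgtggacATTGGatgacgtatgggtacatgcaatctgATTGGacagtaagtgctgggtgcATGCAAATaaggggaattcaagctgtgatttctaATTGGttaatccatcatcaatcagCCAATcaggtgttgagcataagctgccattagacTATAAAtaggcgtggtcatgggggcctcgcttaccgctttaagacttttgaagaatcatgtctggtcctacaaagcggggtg
It contains 4 CCAAT, 2 TATAAA and 1 octamer, here read as its reverse complement. CCAAT stood in the 300-base windows of 47 of 55 cluster genes (85.5%) against 41.1% of all 27025 genes with a window, TATAAA in 58.2% against 15.7%, and the octamer, known from H2B promoters, in 20% against 1.97%. These matches describe letters in the windows, and promoters of paralogs are not independent of each other.

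The spermatid linker histones H1f7 and Hils1 had few reads. H1f7 (H1t2, formerly H1fnt) had 16 reads in ko replicate 1 (95% Poisson interval 9.14 to 25.98), 0 in ko replicate 2 and 0 in both het libraries, where a count of 0 allows, as a one-sided limit, up to 3 reads or 0.157 to 0.189 FPKM. Hils1 had 16 and 3 reads in ko and 6 and 0 reads in het. Transcripts of late spermatids moved with them. Of the 10 late spermatid markers, 8 were highest in ko replicate 1, and the list summed to 56.2 and 15.01 FPKM in ko and 17.2 and 15.4 FPKM in het. Prm1, protamine 1, had 172 and 4 reads in ko and 4 and 0 reads in het, Tnp1, transition protein 1, had 105 and 5 reads in ko and 6 and 0 reads in het, and Smcp had 52 and 0 reads in ko and 0 in both het libraries. Both spermatid histones were highest in ko replicate 1, and ko replicate 2 was at or below het replicate 1. The part of spermatids in that library was not tested.

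**Figure D5:**
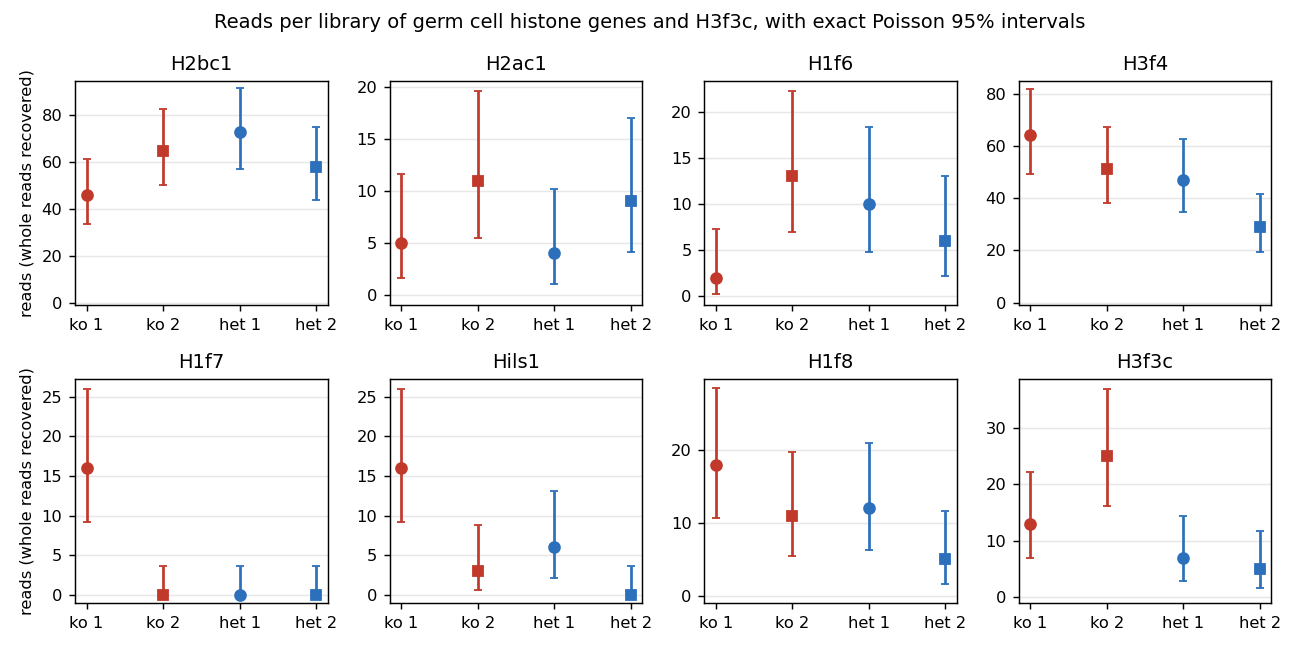
Reads per library, with exact Poisson 95% intervals (counting error only), of the 7 germ cell histone genes and of H3f3c, ko in red and het in blue; libraries differ in depth. H1f7 has 16 reads in ko replicate 1 and 0 in the other libraries, while H2bc1 has 46 to 73 reads in every library.

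Markers of spermatocytes also differed between the libraries. The 10 pachytene markers summed to 101 and 104 FPKM in ko and 258 and 143 FPKM in het, with 0 of 6 tested members called by limma and 2 of 6 lower at an unadjusted p under 0.05; voom called those 2, Piwil1 and Ldhc, lower. Piwil1 stood at 3.65 and 5.01 FPKM in ko and 28.1 and 14.3 FPKM in het. The 8 markers of differentiating spermatogonia summed to 187 and 171 FPKM in ko and 161 and 165 FPKM in het, and the 10 of undifferentiated spermatogonia to 51.3 and 49.45 FPKM in ko and 44.3 and 49.7 FPKM in het. limma and voom called 0 in either list, with 2 of 8 and 1 of 9 higher at an unadjusted p under 0.05. Macrophage markers summed to 163 and 134 FPKM in ko and 74.6 and 73.8 FPKM in het. Of 8 tested, limma called 1 higher (C1qb) and voom 3, and 5 were higher at a limma unadjusted p under 0.05. Over all genes, 4.9% were higher and 4.41% lower at that unadjusted p. Calls over all genes were 0.207% higher and 0.0112% lower by limma, and 0.767% higher and 0.625% lower by voom. Sertoli markers (1422 and 1219 FPKM in ko, 920 and 1137 FPKM in het) and Leydig markers (193 and 151 FPKM in ko, 149 and 139 FPKM in het) had 0 called by limma or voom and 0 at an unadjusted p under 0.05. The part of cell makeup in the values of H2bc1 and H1f6 was not tested.

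Of the retrocopies, pseudogenes and antisense transcripts, 3 of 9 rows were tested. H3f3c, annotated as a processed pseudogene of the H3.3 family in GENCODE M21 and as protein-coding in RefSeq, had 13 and 25 reads in ko and 7 and 5 reads in het, or 1.63 and 4.17 FPKM against 1.16 and 1.00 FPKM. The groups do not overlap, and ko replicate 2 stood well above the rest. On the log2 scale limma put the difference at 0.83 (SE 0.35, adjusted p = 0.565 by Benjamini-Hochberg), at 1.31 without ko replicate 1 and at 0.34 without ko replicate 2. Of its 50-base windows 73.8% occur in other annotated transcripts, most often those of H3f3a, where reads of the 2 genes have the same letters. H3f3a-ps1 stood at 2.01 and 1.51 FPKM in ko and 2.17 and 1.20 FPKM in het, and the antisense transcript H3f3aos, whose exons overlap those of H3f3a, at 3.06 and 3.31 FPKM in ko and 2.96 and 3.27 FPKM in het. H1f11-ps was listed at 0 in every library.

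Histone rows with symbols outside the rule, chosen after their symbols were seen, were read the same way. Of 36 such rows 9 were tested and 0 called by limma or voom, with 2 of 9 at an unadjusted p under 0.05, beside 9.31% of all tested genes in either direction. H2ax, the H2A variant phosphorylated at DNA breaks and on the sex body of spermatocytes, stood at 51.2 and 54.2 FPKM in ko and 70.04 and 48.9 FPKM in het. The H2A.Z genes H2az1 (62.5 and 59.3 FPKM in ko, 59.6 and 55.4 FPKM in het) and H2az2 (42.3 and 38.07 FPKM in ko, 38.3 and 34.8 FPKM in het) overlapped between genotypes. So did Macroh2a1 (17.6 and 17.1 FPKM in ko, 17.4 and 16.1 FPKM in het), a macroH2A gene known from silent chromatin, while its relative Macroh2a2 stood at 7.10 and 6.85 FPKM in ko, below 7.88 and 7.75 FPKM in het. The 2 rows at an unadjusted p under 0.05 were H2aj, at 12.2 and 11.7 FPKM in ko and 9.96 and 9.66 FPKM in het (limma Benjamini-Hochberg adjusted p = 0.504), and H2bfm, at 3.77 and 3.85 FPKM in ko and 2.597 and 2.97 FPKM in het (limma Benjamini-Hochberg adjusted p = 0.517). Of the 23 short or germ cell forms (H2A.B, H2A.L, H2A.P and H2B.L genes), 15 were listed at 0 in every library and none passed 0.785 FPKM; H2al2a, which enters chromatin with transition proteins in spermatids, had 6 and 0 reads in ko and 0 in both het libraries.

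Genes that make, carry and replace histones were followed in 4 lists, and limma and voom called 0 members of each. In the list for histone mRNA processing, 17 of 17 genes were tested, with a median log2 fold change of -0.037 and 0 at an unadjusted p under 0.05. Its 2 genes of smallest p were Casp8ap2, a factor of the histone locus body, at 15.5 and 16.4 FPKM in ko and 18.3 and 18.2 FPKM in het, and Srrt, which links capped RNA to processing, at 39.8 and 42.7 FPKM in ko and 51.2 and 43.4 FPKM in het. Slbp, the stem-loop binding protein, named here for its role, stood at 18.02 and 17.7 FPKM in ko and 20.3 and 17.8 FPKM in het. The chaperone list had a median of -0.009 over 23 genes, with Nasp, a carrier of H3-H4, at 44.3 and 44.95 FPKM in ko and 49.7 and 49.6 FPKM in het, and Atrx, which deposits H3.3 with Daxx, at 7.68 and 8.29 FPKM in ko and 8.49 and 9.92 FPKM in het.

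The S phase list, the state in which cluster genes are transcribed, had a median of 0.041 over 22 tested genes, 13 above 0 and 9 below. Ccne2, cyclin E2, stood at 24.4 and 26.5 FPKM in ko and 30.3 and 28.7 FPKM in het, and Gins1, a part of the replicative helicase, at 15.01 and 13.04 FPKM in ko and 19.7 and 14.9 FPKM in het. Of the 13 genes of the histone-to-protamine exchange 9 were tested, with a median of 0.036. Among those 9, Prm1, Tnp1, Prm2 and Tnp2 passed the filter only through ko replicate 1, at 15.5, 12.4, 5.70 and 5.57 FPKM. Each was under 1 FPKM in every other library. Brdt, the bromodomain protein that reads acetylated histones in spermatids, stood at 15.3 and 15.4 FPKM in ko and 22.8 and 16.7 FPKM in het, and Tnp1 is given above. Over the 4 lists, 0 genes reached an unadjusted p under 0.05, beside 9.31% of all tested genes in either direction.

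Depth, taken as the scaling total that the steps in the values imply, was 19430364 and 14573566 reads in the ko libraries. In the het libraries it was 14638658 and 12155089 reads. Kctd19 itself, summed over all exons, stood at 12.8 and 15.6 FPKM in ko and 29.7 and 18.2 FPKM in het, and limma did not call it (Benjamini-Hochberg adjusted p = 0.529), which does not check a deletion that leaves most of the transcript.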

How the data were processed

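The authors deposited 1 table per library with gene symbols and FPKM (fragment counts scaled by exon length and library size), per the file headers. The submitters' processing notes name CASAVA 1.9, STAR 2.6.1a, featureCounts, edgeR and GRCm38 without settings; neither annotation release nor strand setting was given in the sources used here. Symbols were matched through RefSeq (GRCm38.p6) and GENCODE M21 for position and exon length. FPKM multiplied by exon length moved in whole steps within a tolerance of 0.02 for 99.1% or more of values up to 20 reads, which gave the reads quoted. Poisson intervals on reads cover counting error only.

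Genes averaging 1 FPKM or more were fitted as log2(FPKM + 1) on genotype with limma 3.58.1 (R 4.3.3, with a variance trend on mean level), and Benjamini-Hochberg adjusted p under 0.05 counted as a call. A fold change on this scale understates the change of low genes. Replicates are biological per the series text. Replicates were compared over genes with 20 or more reads in all, and the mean chi-square of a gene was 19.5 for the ko pair and 6.28 for the het pair, more than counting error gives. The code was tested on simulated reads. Values are given for the 10 most abundant rows, for rows at an unadjusted p under 0.05, for germ cell histones and for replacement variants, and from each pathway list the 2 genes of smallest p. The members, classes and lists were chosen with earlier results of these data known. Alternatives were a pseudocount of 0.1, no filter, a replicate block, each library left out, voom on whole reads, median-of-ratios scaling and upper-quartile scaling.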

Additional observations from a re-analysis of the deposited data

How the results depend on the processing

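Over all genes limma called 37 higher and 2 lower. With the replicate block it called 15 higher and 0 lower; the replicate numbers do not pair the libraries (same-numbered libraries deviated with r = -0.0342 across genes), so no weaker effect is read from this. Without the filter it called 0 and 0, voom on whole reads called 135 and 110, and leaving out any library gave 0 to 0 in either direction. Of the histone members 0 were called under each of these alternatives, under both scalings and with a pseudocount of 0.1. Without the filter all 81 were fitted and 4 (H1f3, H2ac6, H4c6 and Hist1h2bp, all with few reads) had a limma unadjusted p under 0.05. At the same threshold, that fit had 1767 higher and 1331 lower of all 55401 genes. With a library left out, the lone library is assumed to vary like the other group, and for the members the effect sizes of those fits follow.

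The sign held in 8 of 19 members and changed for 11, none of them called, when a library was left out, over ranges of -0.03 to 0.161 (H3f3b), -0.658 to 0.321 (H2bc4), -0.029 to 0.262 (H1f10), -0.42 to 0.403 (H2ac1), -0.074 to 0.28 (H4c9), -0.003 to 0.103 (H3f3a), -0.157 to 0.236 (H4c8, and -0.013 with voom), -0.19 to 0.071 (H2bc21), -0.029 to 0.079 (H3f3aos), -0.205 to 0.317 (H3f3a-ps1) and -0.094 to 0.024 (H1f0). The 8 that kept their sign ranged from 0.059 to 0.436 (H1f2), 0.046 to 0.469 (H1f1), 0.072 to 0.445 (H3f4), 0.213 to 1.168 (H4c12), 0.337 to 1.314 (H3f3c), -0.935 to -0.119 (H2bc1), -0.716 to -0.172 (Hist1h4n, under the filter without het replicate 1) and -0.384 to -0.168 (H3c14). The summed difference, ko minus het, ranged from -4.8 to 4.44 FPKM for cluster genes and from -5.62 to 32.5 FPKM for replacement variants. The cause was not tested. Depth limits the 62 rows under the filter, which had 0 to 18 reads per library.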
